A study of Mus musculus with 60 samples.

Results

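Interferon-stimulated genes were followed as a set of 39 genes, named by symbol, in the 2 gene count tables of a mouse model of the CD74-NRG1 fusion. All 39 were found in both tables, among 46517 genes in the table of murine embryonic fibroblasts (MEF) and 54838 in the table of tissues and tumours. The set holds 23 genes grouped as effectors, 7 sensors and signalling factors, 4 regulators, and 5 genes (4 GTPases and the chemokine gene Cxcl10) that also answer type II interferon. Some of the effectors act on viral RNA, protein synthesis or membranes. Bst2, Ifit3 and Cxcl10, the genes given as markers of the set, were detected in fibroblasts at passage 1 and passage 3 and in every tissue group.

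CD74-NRG1 joins the CD74 gene to NRG1, which encodes the ErbB ligand neuregulin. The mouse line, Rosa26CD74-NRG1/Flp, carries the fusion at Rosa26 behind a stop cassette flanked by FRT sites, and a FLP deleter allele, also at Rosa26, removes that cassette early in the embryo, so that expression is not limited to 1 tissue. Fibroblasts came from 9 embryos, 3 labelled CD74-NRG1 negative (Rosa26Flp/Flp), 3 heterozygous (Rosa26FSF.CD74-NRG1/Flp) and 3 homozygous (Rosa26FSF.CD74-NRG1/FSF.CD74-NRG1), so the labelled groups differ in the FLP allele as well as in the fusion, and the genotype given for the homozygous group names no FLP allele. RNA was taken at passage 1 and again after passage 3, and 17 fibroblast libraries were used (9 at passage 1, 8 at passage 3, where embryo 8 was not used). The passage 1 library of embryo 8 is so given by its group and description, whereas its title says passage 2. The 42 tissue libraries came from 9 mice of the same line, and no tissue of a mouse without the fusion was analysed, so normal tissue here means tissue outside a tumour. The groups used below were 8 normal livers, 7 lungs, 6 spleens, 6 muscles, 3 liver tumours and the sarcomas of 6 mice (2 libraries of mouse M00245 were summed). The liver tumour of M00249 is marked as tumour in its group label, but its title names only liver. Tissue RNA was extracted from sections of frozen tissue, so each library mixes the cell types of that section. No age or sex of the mice was given in the labels, and no drug or other treatment was given.

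Interferons are secreted proteins that signal through paired cell surface receptors. Type I interferon (the alpha and beta forms) acts through the kinases Jak1 and Tyk2 and a complex with Stat2 and Irf9 that binds the interferon-stimulated response element, whereas type II interferon (gamma) acts through Jak1 and Jak2 and on gamma-activated sites. The induced genes degrade viral RNA, block translation and assembly, or feed back on the pathway, and many of them are kept at a low tonic level in macrophages and other immune cells without infection.

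The elements bound by these factors are short and were searched for in the promoters. RefSeq promoters on GRCm38.p6, 250 bases before to 50 bases after the gene start, were matched for 30 of the 39 genes. The core of the interferon-stimulated response element, GAAA and GAAA parted by any 2 bases, was searched on both strands and lay in 18 of these 30, against 1079 of 27025 genes of the same table (3.99%). The gamma-activated site, TTC and GAA parted by any 3 bases, reads the same on both strands and lay in 7 of the 30 (23.3%) against 2582 (9.55%) of all genes. A match describes these letters and is not evidence of binding. The 6 stretches below come from genes whose values the results turn on. Each runs 5′ to 3′ on the strand of its gene, capitals mark the motif, and TTTC and TTTC parted by 2 bases is the first motif read on the other strand. Isg15 holds 3 overlapping matches and Bst2 a pair, of which 1 each is shown, and Ifit3 has 1 more match further from its start.
Isg15, chr4:156200871-156200900, minus strand: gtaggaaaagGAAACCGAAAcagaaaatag
Bst2, chr8:71537577-71537606, minus strand: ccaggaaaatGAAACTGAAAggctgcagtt
Ifit3, chr19:34583397-34583426, plus strand: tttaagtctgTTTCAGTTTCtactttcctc
Cxcl10, chr5:92349083-92349112, minus strand: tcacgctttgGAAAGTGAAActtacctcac
Igtp, chr11:58199512-58199541, plus strand: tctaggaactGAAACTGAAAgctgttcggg
Rsad2, chr12:26456553-26456582, minus strand: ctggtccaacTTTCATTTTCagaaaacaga
The first capital letter lay 72 bases before the gene start in Isg15, 124 in Bst2, 122 in Ifit3, 213 in Cxcl10, 34 in Igtp and 120 in Rsad2. Bst2 and Igtp share the full 10 letters GAAACTGAAA, which Ifit3 carries on the opposite strand, and Rsad2 also has the motif on the opposite strand.

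Libraries held 3107529 to 5000067 counts in fibroblasts and 4837440 to 10089572 in tissues, where 3 counts correspond to at most 0.965 CPM (counts scaled to one common library total) in any fibroblast library. Levels are given as plain CPM. Fold changes and the group means beside them are on CPM scaled by the trimmed mean of M-values (TMM), and they were tested with edgeR's quasi-likelihood test, with p-values adjusted by Benjamini-Hochberg over all genes tested and a threshold of 0.05. Nrg1, whose reads check the labels, went against them in 2 embryos. Embryo 1, labelled negative, had 132 and 147 CPM of Nrg1, and embryo 3, labelled homozygous, had 0.644 and 1.28 CPM, so genotypes below are labelled genotypes. Among the mice, M00246 had the lowest Nrg1 in liver (0.675 CPM), lung (5.37 CPM), muscle (1.30 CPM) and spleen (2.34 CPM), and counts without it are given beside the results that include it.

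At passage 1, the interferon-stimulated genes divided the fibroblast cultures into low and high ones, and the low ones were embryos 2, 3 and 10. The mean of log2(CPM + 1) over the 39 genes was 2.07 in embryo 2, 1.97 in embryo 3 and 1.62 in embryo 10, and it ran from 4.28 to 4.74 in the other 6 embryos. In 37 of the 39 genes the 3 lowest values were those of embryos 2, 3 and 10, and the exceptions were Ifit2 and Xaf1. Among the 38 members that passed the filter on low counts this was 36 (94.7%), against 11.3% of the 12357 genes tested. The embryos were singled out after their values were seen, so no test was made of this division. Embryo 2 was labelled heterozygous, and embryos 3 and 10 homozygous.

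**Figure D1:**
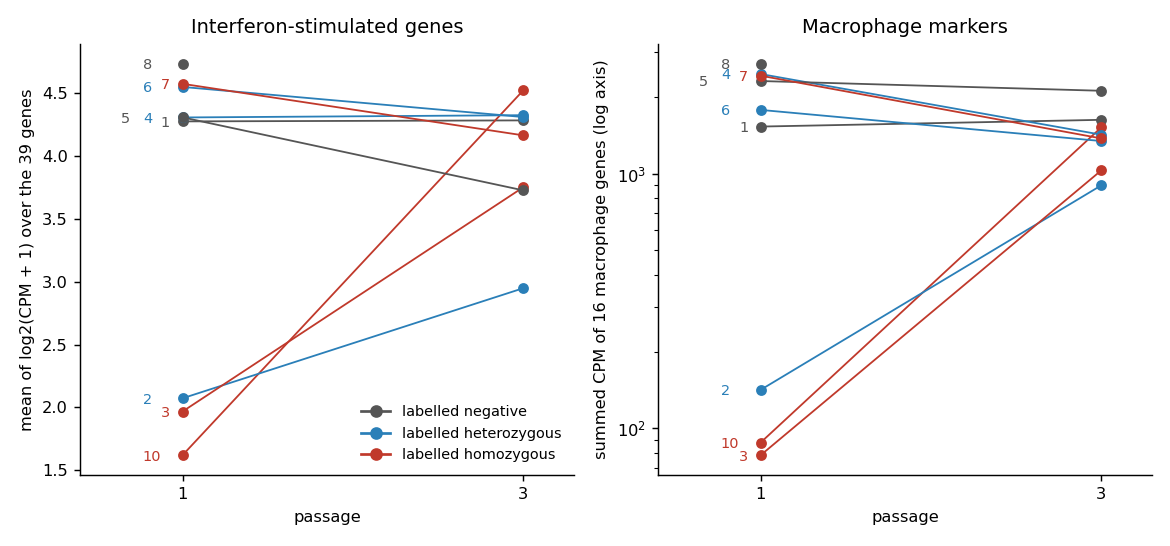
Mean of log2(CPM + 1) over the 39 interferon-stimulated genes (left) and summed CPM of 16 macrophage marker genes on a log axis (right) in each fibroblast library, by passage. Points are libraries coloured by labelled genotype and numbered by embryo, and lines join the passages of 1 embryo. Embryos 2, 3 and 10 lay apart at passage 1 in both panels, and all 3 were higher at passage 3.

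Among the effectors, Isg15, a ubiquitin-like protein joined to other proteins, was at 47.5, 31.2 and 19.2 CPM in embryos 2, 3 and 10 and at 568 to 956 CPM in the others. Bst2, the tetherin that holds budding virus at the membrane, was at 36.8, 26.7 and 20.3 CPM in the same embryos and at 200 to 277 CPM in the others. Ifit3, which binds foreign RNA together with Ifit1, was at 0.281, 0 and 0.513 CPM against 8.90 to 25.2 CPM. None of Isg15, Bst2 and Ifit3 overlapped between the low cultures and the rest. The membrane protein gene Ifitm3 was at 126 to 162 CPM in the low cultures and 482 to 564 CPM in the rest, so it stayed well detected in all 9. Oas2, Mx1 and the nucleic acid sensor gene Zbp1 had no read in any of the 3 low cultures, which allows up to 3 counts each, and Mx1 was near that floor in the rest too, at 0.262 to 1.44 CPM.

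The signalling members and the regulators showed the same order. Irf7, the factor that amplifies type I interferon production, was at 2.25, 1.29 and 0.770 CPM in embryos 2, 3 and 10 and at 29.6 to 56.3 CPM in the others. Usp18, which removes Isg15 from proteins and damps the type I receptor, was at 1.12, 1.29 and 0 CPM against 24.8 to 47.1 CPM. All 7 sensors and signalling factors and all 4 regulators had the 3 low embryos lowest, against 11.3% of all genes tested. Igtp, an interferon-inducible GTPase, was at 1.12, 0.322 and 0.513 CPM against 5.85 to 13.6 CPM. Cxcl10, a chemokine that draws T cells, was nearer between the cultures, at 1.97, 3.22 and 1.03 CPM against 4.71 to 10.4 CPM. Ifit2 overlapped, since embryo 2 had 5.06 CPM and embryo 6 had 5.02 CPM. Xaf1, a gene linked to cell death, also overlapped, with 15.4 CPM in embryo 3 and 15.2 CPM in embryo 5.

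**Figure D2:**
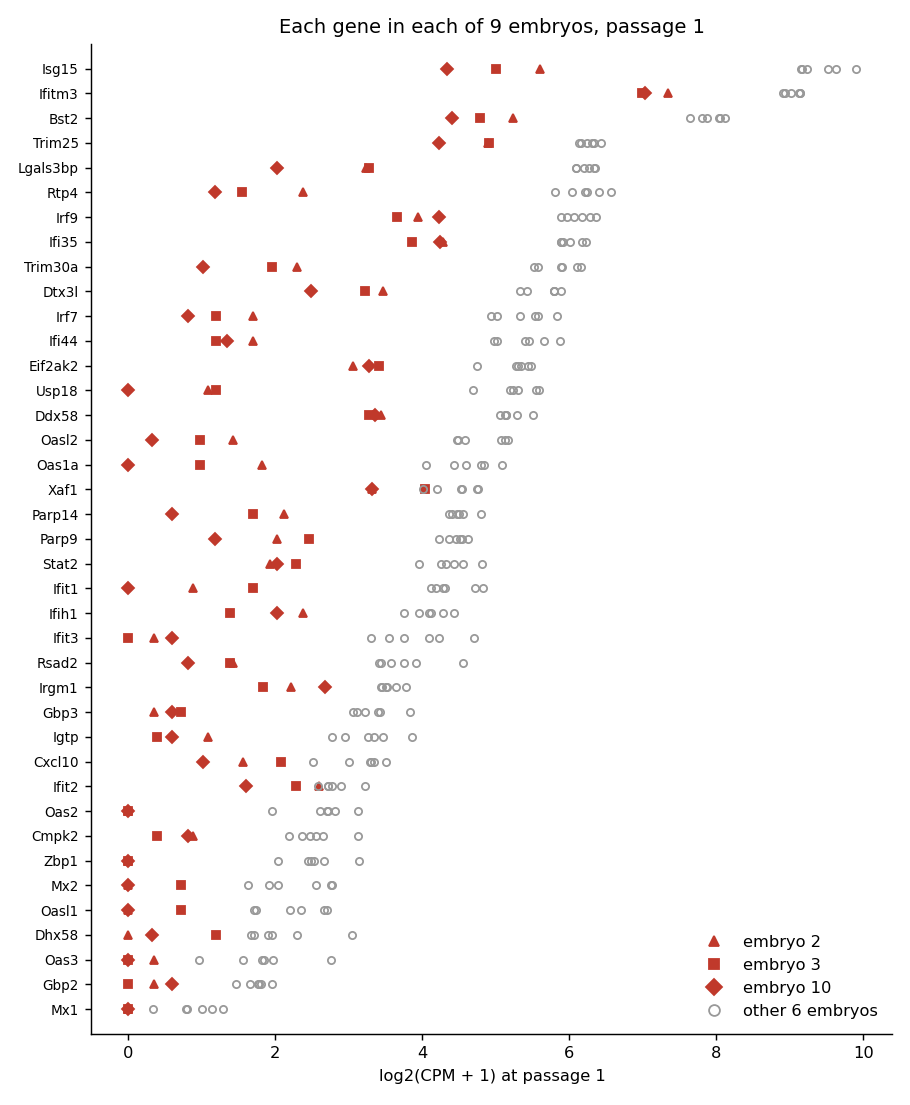
log2(CPM + 1) of each of the 39 genes (rows) in each of the 9 embryos at passage 1, with embryos 2, 3 and 10 as filled symbols and the other 6 as open circles. Only in Ifit2 and Xaf1 did a filled symbol reach the range of the open ones.

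Macrophage genes moved with this division, and their part in it was not tested. Summed over 16 macrophage markers, the level was 142, 78.5 and 88.0 CPM in embryos 2, 3 and 10 and 1530 to 2704 CPM in the others. All 16 markers had these embryos lowest, against 11.3% of all genes tested. The lysozyme gene Lyz2 ranged from 13.9 to 1164 CPM over the 9 cultures, the complement gene C1qa from 10.9 to 555 CPM and the receptor gene Csf1r from 22.2 to 85.1 CPM. In bulk RNA, fewer cells of a type and less RNA per cell cannot be told apart. Fibroblast markers were high in every library, and their sum was also lower in the 3 embryos, at 4227 to 5177 CPM against 6972 to 7777 CPM. The summed level of 4 skeletal muscle genes was 20.5, 46.3 and 132 CPM in embryos 2, 3 and 10 and at most 15.3 CPM in the others.

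Other genes of the interferon pathway shared the order in part. Of 44 further interferon-stimulated genes tested, 41 had embryos 2, 3 and 10 lowest at passage 1, against 11.3% of all genes tested. The count was 5 of 9 among receptors and kinases, 7 of 11 among sensors and adaptors, 3 of 5 among inhibitors and 3 of 5 among other interferon regulatory factors. Irf1, which gamma interferon induces, ranged from 24.1 to 52.7 CPM, and Irf8, a factor of myeloid and B cells, from 2.05 to 36.9 CPM. The receptor gene Ifnar1 had a narrower range, 6.11 to 11.3 CPM, as did Ifnar2 (26.4 to 45.4 CPM) and Ifngr1 (53.4 to 101 CPM). None of 20 interferon genes passed the filter on low counts. Ifnb1, the beta interferon gene, was detected in 1 library only, at 0.245 CPM in embryo 7 at passage 1, and Ifng, the gamma interferon gene, had no read in any fibroblast library.

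By passage 3 the cultures lay closer together, with most members higher in embryos 2, 3 and 10 and lower in embryos 5, 6 and 7. The mean of log2(CPM + 1) was 2.95 in embryo 2, 3.75 in embryo 3 and 4.52 in embryo 10, and it ran from 3.73 to 4.33 in the other 5. Within embryo 10 all 39 genes were higher at passage 3 than at passage 1, with a median change of 2.51 in log2(CPM + 1). In embryo 3, 36 genes were higher and 2 lower (median change 2.01), and in embryo 2, 35 were higher and 3 lower (1.06). Embryos 5 and 7 went the other way, with 37 and 36 of 39 genes lower at passage 3 and median changes of -0.50 and -0.38. Embryo 6 had 30 genes lower, and embryos 1 and 4 were divided, with 24 and 20 genes higher.

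Single genes followed the embryos. Bst2 went in plain CPM from 20.3 to 296 in embryo 10, from 26.7 to 196 in embryo 3 and from 36.8 to 83.5 in embryo 2, whereas it went from 265 to 146 CPM in embryo 5. Ifit3 reached 21.7, 7.15 and 1.68 CPM in embryos 10, 3 and 2, and was at 6.20 to 14.3 CPM in the other 5. Cxcl10 differed from these, since it was lower at passage 3 in embryos 2 (0.838 CPM) and 3 (1.53 CPM) and higher only in embryo 10 (4.28 CPM), and it was lower at passage 3 in the other 5 as well. The summed macrophage level at passage 3 was 900 CPM in embryo 2, 1030 CPM in embryo 3 and 1520 CPM in embryo 10, and 1343 to 2115 CPM in the other 5. Embryos 2 and 3 were lowest in this sum, whereas embryo 5, with the second lowest level of the interferon-stimulated genes, had the highest macrophage sum.

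Tested over all embryos, no member passed the test between passage 3 and passage 1. edgeR called 0 of 38 members, with 0 at an unadjusted p below 0.05, and DESeq2 called 0, with 1 at an unadjusted p below 0.05. Over all genes tested, 1.06% were called (0.728% higher, 0.332% lower). The median log2 fold change of the members was 0.18, with 32 of 38 positive, beside a median of -0.003 over all genes. With the embryo as a block the median was 0.47, again with 0 called, and 1 at an unadjusted p below 0.05. Bst2 had a log2 fold change of 0.24 (SE 0.431, adjusted p = 0.858), from 171 ± 109 to 191 ± 58.4 TMM-scaled CPM (SD, n = 9 and 8). Cxcl10 had -0.68 (SE 0.403, adjusted p = 0.461). Without embryos 2, 3 and 10 the median was -0.33, with 2 of 38 positive. These embryos were picked by their low passage 1 values, so that fit is no test of passage. Without embryo 10 alone the median was -0.07, and without embryos 1 and 3, whose Nrg1 went against the label, it was -0.07. Without embryo 7 it was 0.95 (26 at an unadjusted p below 0.05). That fit leaves only embryos 3 and 10 in the homozygous group, so it is no separate test of passage either. Ifi27, an interferon-stimulated gene outside the set, rose, at 124 against 75.3 plain CPM (log2 fold change 0.77, SE 0.161, adjusted p = 0.0382), and was the 1 gene called among 44 of its list. Without embryo 1 edgeR called 0 of 12852 genes, Ifi27 included, and 0 also without embryos 1 and 3. Of the 16 macrophage markers 0 were called by edgeR, with a median of -0.036.

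No member passed the test between the labelled genotypes either. edgeR called 0 of 38 members, and 0 of all 12357 genes, in homozygous or heterozygous against negative fibroblasts at either passage. DESeq2 called 0 members in each of these comparisons too, with 2 at an unadjusted p below 0.05 in homozygous against negative at passage 1 and 0 in the rest. With no filter on low counts edgeR again called 0 of 39, with 23 at that p in homozygous against negative at passage 1. At passage 1 the members' median log2 fold change was -1.20 in homozygous against negative, with 0 of 38 positive and 3 at an unadjusted p below 0.05, and -0.44 in heterozygous against negative, with 2 positive and 0 at that p. At passage 3 the medians were 0.17 and -0.10, with 0 at that p in both. The count moved with embryo 7, the labelled homozygous culture with high levels. Without it, 25 of 38 members were lower in homozygous than negative fibroblasts at passage 1 (median -3.43), against 3.62% of all genes. That fit only sets embryos 3 and 10, of which embryo 3 goes against its label in Nrg1, against embryos 1, 5 and 8, of which embryo 1 does, so it restates the division seen above and is no test of genotype. Without embryos 1 and 3, edgeR called 0 members at passage 1 (median -0.85) and 0 at passage 3 (0.63). For the difference in passage change between homozygous and negative embryos, edgeR and DESeq2 each called 0 members, with 0 at an unadjusted p below 0.05. All 38 differences were positive (median 1.32). Without embryo 7 edgeR called 0 with 32 at that p. There too embryos 3 and 10 alone made up the homozygous group, so that count restates the same division. With the embryo as a block edgeR called 0 with 6 at that p, and with no filter on low counts 0 with 8.

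Among the 6 tissue and tumour groups compared, spleen, liver tumour and lung had the highest mean levels of the set in plain CPM and muscle the lowest. The mean of log2(CPM + 1) over the 39 genes was 4.53 ± 0.24 (SD, n = 6) in spleen, 4.39 ± 0.25 (n = 3) in liver tumour, 4.21 ± 0.44 (n = 7) in lung, 3.61 ± 0.47 (n = 8) in normal liver, 3.50 ± 0.28 (n = 6) in sarcoma and 2.14 ± 0.31 (n = 6) in muscle. Ranges of spleen, liver tumour and lung overlapped, and the highest normal liver (4.38, M00247) lay within each of them. The highest sarcoma mouse, at 3.84, was above the lowest lung, at 3.73, and within the range of normal liver. Every muscle (1.79 to 2.46) was below every library of the other 5 groups, the lowest of which was 3.05. These levels and the group means below are in plain CPM, where the median of all genes tested was itself shifted. It was 1.03 higher in log2 in sarcoma than in muscle and 1.16 higher than in liver tumour. Mitochondrial genes took 21.1 to 34.8% of muscle counts. Of the 39 genes, 12 had their highest group mean in spleen, 11 in lung, 11 in liver tumour, 4 in normal liver and 1 in sarcoma, and 36 had their lowest mean in muscle. The 1 gene highest in sarcoma was Ifit2, at 25.8 ± 9.04 CPM.

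**Figure D3:**
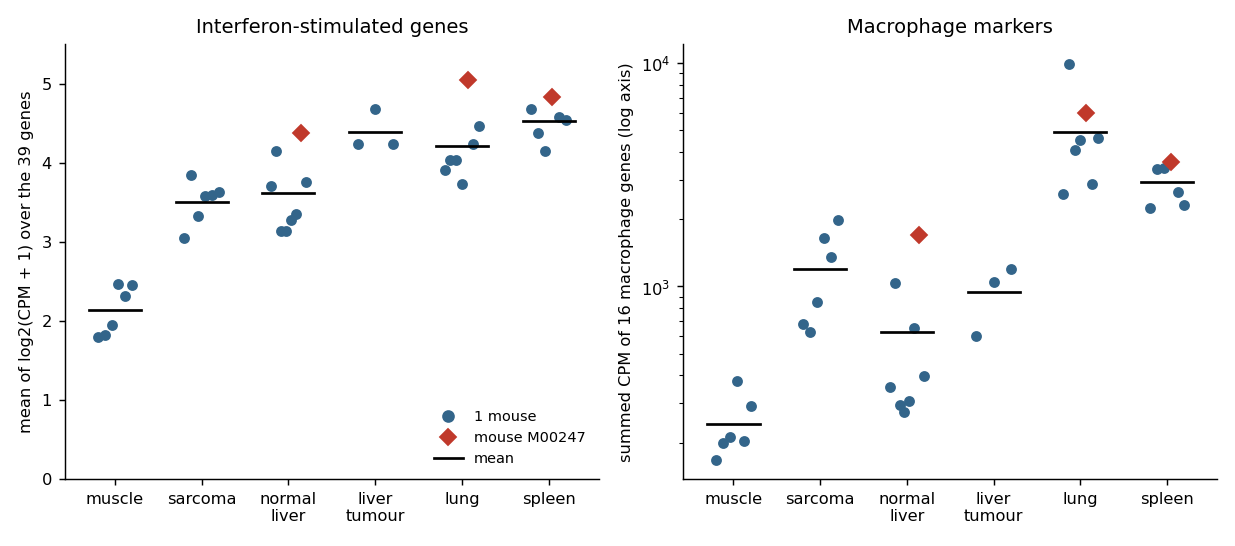
Mean of log2(CPM + 1) over the 39 genes (left) and summed CPM of 16 macrophage markers on a log axis (right) in each mouse, by tissue or tumour, with group means as bars. Muscle lay below all other groups on the left, and mouse M00247 (diamonds) was highest in liver, lung and spleen there.

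The summed macrophage level was 2606 to 9928 CPM in lung, 2239 to 3593 in spleen, 628 to 1978 in sarcoma, 600 to 1198 in liver tumour, 274 to 1692 in normal liver and 168 to 377 in muscle. Sarcomas and liver tumours overlapped in this sum but not in the level of the interferon-stimulated genes, where the highest sarcoma mouse was at 3.84 and the lowest liver tumour at 4.24. Mouse M00247 had the highest level of the set in liver (4.38), lung (5.05) and spleen (4.83). Its macrophage sum was the highest in liver (1692 CPM) and spleen (3593 CPM) but not in lung. Its 5 neutrophil genes summed to 3229 CPM in normal liver, 6381 CPM in lung and 16492 CPM in spleen. The other mice had at most 26.0, 736 and 1277 CPM there, and the part of these cells was not tested. The markers of each tissue stood where the labels put them, with 4 hepatocyte genes at 21868 to 55160 CPM in normal liver and 13404 to 85326 CPM in liver tumour, 5 lung epithelial genes at 21760 to 76746 CPM in lung, and 4 skeletal muscle genes at 12475 to 23440 CPM in muscle. B cell genes summed to 430 to 1494 CPM in spleen.

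Rsad2, which encodes the antiviral enzyme viperin, reached 1071 CPM in spleen (median 641), every spleen was above every lung, and it was at 17.1 to 90.4 CPM in lung (median 22.0), with liver tumours at 33.0, 25.2 and 33.3 CPM. Bst2 was highest in liver tumour (147, 59.9 and 78.6 CPM in mice M00236, M00248 and M00249) and normal liver (31.6 to 78.0 CPM, median 50.4), and lower in lung (10.2 to 36.8 CPM) and spleen (12.6 to 23.0 CPM). Ifit3 was highest in lung, at 30.8 to 84.8 CPM (median 41.3), and stood at 9.19 to 20.5 CPM in spleen. Cxcl10 was at 9.86, 103 and 10.0 CPM in the liver tumours, 7.07 to 18 CPM in spleen, 1.71 to 6.75 CPM in normal liver, 0.766 to 4.33 CPM in lung and 0.637 to 6.08 CPM in sarcoma. Ifit2, which binds foreign RNA with other IFIT proteins, was at 13.6 to 40.5 CPM in sarcoma (median 26.5), and sarcoma overlapped lung, whose highest value was 14.7 CPM, but no normal liver, spleen or muscle and no liver tumour.

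**Figure D4:**
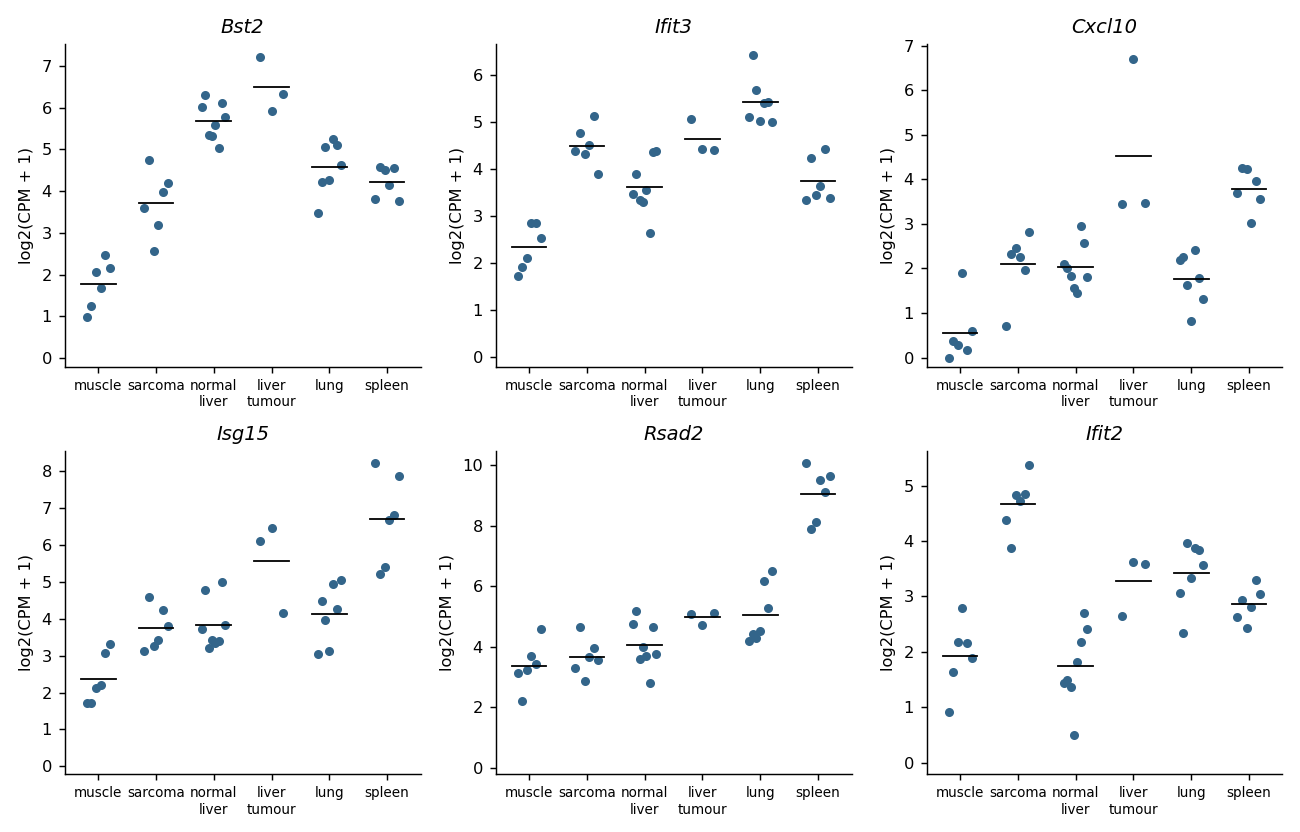
log2(CPM + 1) of Bst2, Ifit3, Cxcl10, Isg15, Rsad2 and Ifit2 in each mouse of 6 groups, with the mean of the plotted values as a bar. Rsad2 stood apart in spleen, Ifit2 was highest in sarcoma, and 1 liver tumour (M00248) held the highest Cxcl10.

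In liver tumours against normal liver, 3 of 38 members were higher and 0 lower, at 10.6% called (6.98% higher and 3.64% lower) over the 13256 genes tested. Cxcl10 was 10.9-fold higher (log2 3.45, SE 0.593, adjusted p = 0.00349), at 37.5 ± 49.2 against 3.45 ± 1.74 TMM-scaled CPM (SD, n = 3 and 8), and all 3 tumours were above all 8 livers. Isg15 was 3.50-fold higher (SE 0.454 on the log2 scale, adjusted p = 0.0247), at 67.8, 86.7 and 17.0 plain CPM in the tumours of M00236, M00248 and M00249, of which the last lay within the range of normal liver, 8.16 to 31.0 CPM. Gbp2, an interferon-inducible GTPase, was 3.55-fold higher (SE 0.46 on the log2 scale, adjusted p = 0.0247), at 10.3, 35.7 and 13.8 plain CPM against 2.57 to 11.8. Bst2 (log2 0.71, SE 0.294, adjusted p = 0.147) and Ifit3 (log2 0.84, SE 0.343, adjusted p = 0.145) did not pass. Dtx3l, a ubiquitin ligase that works with Parp9, had a log2 fold change of -0.55 (adjusted p = 0.0838) with no overlap in TMM-scaled CPM. In this and the other tissue comparisons, the share of all genes without overlap was not counted. The members' median was 0.56, with 30 of 38 positive, beside 0.09 over all genes, and Oas2 fell under the filter.

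The liver tumour calls were the least stable of the tissue results. With the mouse as a block, edgeR called 0 of 38 members and 0 of all 13256 genes, and only 2 mice had both tissues. Without tumour mouse M00248 none was called, without M00238 or M00246 only Cxcl10 was, without M00249 there were 5, and without M00247, the mouse with the highest normal liver level, there were 8, with Ifit2, Xaf1, Zbp1 and Trim30a added among the higher and Dtx3l as the 1 lower. Within mouse M00248, 32 of 39 genes were higher in the tumour than in its own liver (median difference 0.78 in log2(CPM + 1)), and within M00236 it was 21 of 39 (0.04). Around the set, the chemokine gene Cxcl9, which gamma interferon induces, was higher in the tumours (log2 3.16, adjusted p = 0.00361), as were Gbp6 (2.14, adjusted p = 0.00738) and the chemokine gene Ccl5 (2.65, adjusted p = 0.00775), among 9 of 55 further interferon-stimulated genes that were higher and 0 lower. Of the receptors and kinases, Il10rb (1.45, adjusted p = 0.0191) and Ifngr2 (1.08, adjusted p = 0.0242) were higher, and the adaptor gene Mavs was lower (-0.58, adjusted p = 0.0485). T cell genes summed to 4.57 to 23.8 CPM in the tumours and 0.510 to 5.63 CPM in normal liver, and Ifng was at 0, 0.694 and 0 CPM in the tumours of M00236, M00248 and M00249; their part was not tested. Of 16 macrophage markers in liver tumour edgeR called 0 (median 0.43). All 3 epithelial markers tested (median 2.53) and 3 of 6 fibroblast markers (1.33) were higher, and 1 of 4 hepatocyte markers was lower; the part of these cells was not tested either.

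In sarcomas against muscle, 18 of 34 members were higher and 0 lower, at 64.9% called (33.6% higher and 31.4% lower) over the 14697 genes tested. Ddx58, the RIG-I sensor of viral RNA, was 3.22-fold higher (SE 0.25 on the log2 scale, adjusted p = 4.98e-05), at 20.1 ± 4.57 against 6.27 ± 2.44 TMM-scaled CPM (SD, n = 6 and 6). Ifit2 was 4.11-fold higher (adjusted p = 0.000192), Stat2 2.33-fold (adjusted p = 0.000308), Cmpk2, a nucleotide kinase next to Rsad2, 2.28-fold (adjusted p = 0.000482) and Parp14 2.31-fold (adjusted p = 0.00086). None of these overlapped between the groups, but overlap was not counted over all genes. Ifit3 (log2 1.42, adjusted p = 0.00147) and Bst2 (1.45, adjusted p = 0.0195) were higher with overlap, and Cxcl10 (1.58, adjusted p = 0.0783) did not pass. With the mouse as a block 21 were called, beside 55.1% of all genes: Cxcl10 (3.58), Dhx58, Ifih1 and Rtp4 were added and Dtx3l was lost. The 12 effectors called were joined by 3 of 4 regulators, 2 of 7 sensors and signalling factors, and Gbp3 of the GTPases. Oas1a, Oas2, Oas3, Mx1 and Mx2 fell under the filter. In each of 4 mice with both libraries, 35 to 38 of 39 genes were higher in the sarcoma in plain CPM, a scale on which the median of all genes tested was itself 1.03 higher in log2. On TMM-scaled counts 27 of the 34 members tested were positive.

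Sarcomas and muscle differed in scale as well as in genes. TMM put sarcoma libraries 0.96 higher in log2 scaling than muscle, and with library totals alone 31 members were called, among them all 18. The members' median of 0.76, beside 0.06 over all genes, is therefore relative to the other genes of these tissues. Of 16 macrophage markers 15 were higher in sarcoma (median 1.41), and the part of these cells was not tested. Without M00246, 20 members were called. Among receptors and kinases 7 of 10 were higher, with Il10rb (log2 1.48, adjusted p = 4.67e-07), Ifnar2 (1.98, adjusted p = 1.1e-06) and Ifnar1 (1.34, adjusted p = 0.000119) first, and Ifnlr1, the receptor of type III interferon, was lower (-3.13, adjusted p = 6.46e-05). Ifnar1 had its highest plain level of the 6 groups in sarcoma, 19.6 ± 4.01 CPM (SD, n = 6), against 3.90 ± 0.995 CPM in muscle. Irf8 (1.80, adjusted p = 0.000112), Irf1 (1.33, adjusted p = 0.000183) and Irf2 (1.13, adjusted p = 0.000414) were higher, and of 47 further interferon-stimulated genes 27 were higher and 4 lower.

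Against lung, sarcomas were lower in 19 of 37 members and higher in 1, at 41.9% called (23.8% lower and 18.1% higher) over the 15556 genes tested. Usp18 was 3.95-fold lower (log2 -1.98, SE 0.31, adjusted p = 8.76e-05), at 2.55 ± 0.695 against 10.1 ± 3.61 TMM-scaled CPM (SD, n = 6 and 7). Further members lower in sarcoma were Gbp2 (3.56-fold, adjusted p = 0.000188), Igtp (3.52-fold, adjusted p = 0.000148) and Rtp4, a receptor chaperone (3.73-fold, adjusted p = 0.000244). Neither these nor Usp18 overlapped, but overlap was not counted over all genes. Ifih1, the MDA5 sensor of viral RNA, was 2.12-fold lower (adjusted p = 0.000226). Ifit3 was lower (log2 -1.11, adjusted p = 0.00327), Bst2 (-0.92, adjusted p = 0.0834) and Cxcl10 (0.34, adjusted p = 0.589) did not pass, and Ifit2 was 2.16-fold higher in sarcoma (adjusted p = 0.00433). The median was -1.01, beside -0.007 over all genes, and Oas3 and Mx2 fell under the filter. With the mouse as a block the count was 14, beside 25.9% of all genes called, and 12 of the 14 were among these 20. The block ended the calls of Usp18 (log2 -1.66), Ddx58, Irf7, Irf9, Lgals3bp, Parp14, Trim30a and Zbp1, and added Bst2 (-1.29) and Ifit1. Without M00246 the count was 21. The macrophage markers went both ways, 4 higher and 7 lower of 16, whereas all 5 B cell, 6 T cell, 4 neutrophil, 4 erythroid, 5 endothelial and 5 lung epithelial markers tested, and 2 of 3 of NK cells, were lower in sarcoma. The part of these cells was not tested. Irf1 was lower (-1.63, adjusted p = 1.14e-06), as were Irf8 (-1.85, adjusted p = 1.65e-05) and 37 of 53 further interferon-stimulated genes, with 1 higher.

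Against spleen, sarcomas were lower in 30 of 38 members and higher in 1, Ifit2, at 57.0% called (27.0% higher, the rest lower) over the 14642 genes tested. Rsad2 was 70.1-fold lower (log2 -6.13, SE 0.573, adjusted p = 4.95e-07), at 11.3 ± 7.82 against 785 ± 470 TMM-scaled CPM (SD, n = 6 and 6). Oas3, which makes the activator of RNase L, was 23.3-fold lower (adjusted p = 3.92e-05), Isg15 15.2-fold (adjusted p = 6.77e-05) and Irf7 8.77-fold (adjusted p = 1.01e-05). Irf9, the DNA-binding part of the type I complex, was 4.14-fold lower, with the smallest adjusted p of the set, 4.15e-07. Cxcl10 was lower (log2 -2.36, adjusted p = 6.29e-05), and Bst2 (-0.84, adjusted p = 0.0638) and Ifit3 (0.29, adjusted p = 0.39) did not pass. All 7 sensors and signalling factors, all 4 regulators and all 5 GTPase and chemokine genes were lower. With the mouse as a block the count was 25, without Ddx58, Ifih1, Gbp3, Ifi35, Oasl1 and Oasl2, beside 32.5% of all genes called. The median was -1.52, beside -0.09 over all genes, and Mx2 fell under the filter. Of 16 macrophage markers 13 were lower, and all 5 B cell and all 6 T cell markers were lower; their part was not tested. Irf8 was lower (log2 -3.89, adjusted p = 3.88e-08). Library totals alone put 27 members lower and 2, Ifit2 and Ifit3, higher, and without M00246 the count was 32.

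Spleen and lung, the normal tissues highest in the set, differed in 17 of 39 members, with 16 higher in spleen and 1, Ifit3, higher in lung, at 52.9% called (25.0% higher and 27.8% lower in spleen) over the 15190 genes tested. Rsad2 was 21.2-fold higher in spleen (log2 4.41, SE 0.548, adjusted p = 6.94e-06), Isg15 10.2-fold (adjusted p = 0.000113), Cxcl10 6.44-fold (adjusted p = 6.45e-06) and Oas3 5.83-fold (adjusted p = 0.00965), whereas Ifit3 was 2.65-fold lower (log2 -1.40, adjusted p = 0.000346). Ifit3 and Rsad2 are therefore ordered oppositely in these tissues, with no overlap for either. Bst2 did not pass (log2 -0.09, SE 0.269, adjusted p = 0.801). The block for mouse added 5 calls (22, with 18 higher and 4 lower), beside 53.3% of all genes called. Without the block the median was 0.45, beside 0.04 over all genes. Library totals alone put 10 higher and 2 lower in spleen. Without M00246 the count was 13. Within mice, in plain CPM, 30 of 39 genes were lower in spleen than in lung in M00247 and 23 in M00249. In M00245 25 were higher, in M00246 24 and in M00248 22. On that scale the median of all genes tested was itself -0.33 in log2 for spleen against lung, so these counts are not relative to other genes. Haemoglobin genes took 13 to 24.9% of the counts of spleen libraries. Of the cell type markers, 9 of 16 macrophage genes were higher in spleen and 2 lower, all 5 B cell, 6 T cell and 4 erythroid genes were higher, and all 5 endothelial genes were lower; their part was not tested.

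Between the tumour kinds, sarcomas were lower than liver tumours in 29 of 39 members and higher in 0, at 55.8% called (25.6% lower and 30.2% higher) over the 16557 genes tested. Cxcl10 was 21.8-fold lower (log2 -4.45, SE 0.743, adjusted p = 0.000469), Oasl1, an OAS relative, 19.6-fold (adjusted p = 0.000346), Zbp1 16.1-fold (adjusted p = 1.53e-05) and Bst2 13.0-fold (log2 -3.70, adjusted p = 0.000137). Irf7 was 11.1-fold lower, at 3.71 ± 1.46 against 41.2 ± 7.64 TMM-scaled CPM (SD, n = 6 and 3, adjusted p = 1.42e-05), and Ifitm3 6.50-fold (adjusted p = 1.42e-05). None of these 6 overlapped, but overlap was not counted over all genes. Ifit3 was lower by less (log2 -1.08, adjusted p = 0.0149). With the mouse as a block 13 of the 29 were called, all lower, beside 23.5% of all genes called. Library totals alone called 18, with 17 lower and Ifit2 higher, since TMM put sarcoma libraries 0.96 above liver tumours in log2 scaling. The median was -1.63, beside 0.20 over all genes. Of 55 further interferon-stimulated genes 37 were lower and 1 higher, led by Iigp1 (-6.34, adjusted p = 2.56e-07), Ube2l6, which passes Isg15 to its targets (-4.40, adjusted p = 1.17e-06), and Lgals9 (-4.49, adjusted p = 1.89e-06). Ifnar2 was lower (log2 -1.30, adjusted p = 0.000347), and 6 of 16 macrophage markers were lower. In the 2 mice that had both tumours, 32 of 39 genes were lower in the sarcoma of M00248 and 25 of 39 in that of M00236.

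**Figure D5:**
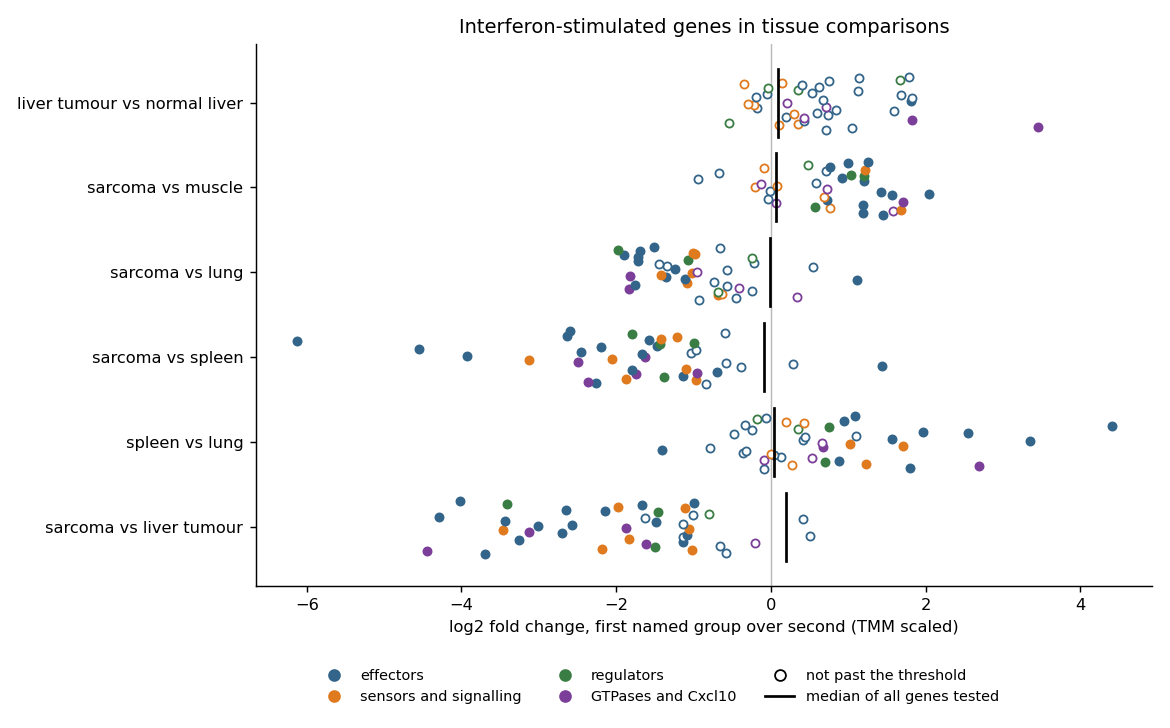
log2 fold change of each member tested in 6 tissue comparisons, first named group over second, on TMM-scaled counts. Filled points passed an adjusted p of 0.05 in edgeR, open points did not, colours give the members' roles and black bars the median of all genes tested. Sarcoma lay below spleen, lung and liver tumour in most members and above muscle.

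The sarcoma libraries enter 4 of these comparisons, so their results are not independent of each other. Ifit2 was the 1 member called higher in sarcoma against each of muscle, lung and spleen, and against liver tumour its log2 fold change was 0.50 (SE 0.316, adjusted p = 0.195). Ligands were too low to test in any tissue comparison (0 of 20 passed the filter). Ifnb1 had no read in any tissue library, and Ifng had none in sarcoma or muscle and 0 to 2.11 CPM in spleen. Several members have close relatives (Ifit3 and Ifit3b, Oas1a and Oas1g, Gbp2 and Gbp3), between which short 3' reads can be divided, so their single values are less certain than those of Bst2, Cxcl10 or Isg15.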

How the data were processed

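RNA was measured by Lexogen QuantSeq 3' sequencing, which reads the 3' ends of transcripts. The authors deposited expected counts per gene, in 1 table for fibroblasts and 1 for tissues, of which 6.57% and 8.35% of values were not whole. The aligner, the counting tool and the build were not given in the sources used here. The deposited CPM tables were not used.

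Expected counts were rounded, genes filtered with filterByExpr (minimum count 10) and tested with edgeR 4.0.16 (TMM, quasi-likelihood, Benjamini-Hochberg, 0.05) in R 4.3.3. SE is the absolute log2 fold change over the square root of F. DESeq2 1.42.0, other scalings and filters, a block for embryo or mouse, and leaving out libraries were alternatives. Each embryo or mouse counted once within a group. One present in both groups of a comparison entered each as a separate library, and the main fits did not use this pairing. The design counted 18 fibroblast libraries, but 1 column of the fibroblast table matched no label and was not used, which left 17. No 2 libraries of a group were alike within sampling noise. The scripts were tested on simulated data.

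Same-numbered libraries come from the same embryo or mouse by the labels. Their deviations from the group means correlated at 0.078 to 0.327 over 8 embryos and at -0.15 to 0.331 over the tissue pairs.

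Members, lists and tests were chosen with earlier results of these data known. Any member could be named; of other genes, Irf1, Irf8, Ifnar1, Ifnar2, Ifngr1, Ifnb1, Ifng, the macrophage genes Csf1r, C1qa and Lyz2, Nrg1, and at most 3 genes of each pathway list per comparison, those with the smallest adjusted p. Results of 1 further gene are not reported here. The limit of 3 counts covers counting error only.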

Additional observations from a re-analysis of the deposited data

Results flagged for a closer look

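Among 200 sets of 4 to 10 values (a gene in a group of mice), 12 held 1 mouse set apart from the rest by a gap that chance gives in about 1 of 20 sets. Mouse M00247 accounted for 5 of them. In its lung, Oas1a was at 16.6 CPM against 1.06 to 3.19 in the other lungs, Oas3 at 15.8 CPM against 0.299 to 2.83, and Dhx58, a regulator of RNA sensing, at 11.1 CPM against 2.94 to 5.16. Its liver had Oas3 at 7.65 CPM against 0 to 1.12, and its spleen had Ifitm3 at 630 CPM against 148 to 226.

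In muscle, M00246 had Cxcl10 at 2.72 CPM against 0 to 0.519 and Mx1 at 0.518 CPM against 0 to 0.12, and M00248 had Ifi35 at 2.39 CPM against 4.14 to 4.98. The sarcoma of M00235 was low in Gbp2, at 5.73 CPM against 11.7 to 15.8, and in Ifih1, at 14 CPM against 21.8 to 26.6. In spleen, M00246 had Irf9 at 68.3 CPM against 84.4 to 91.1, and M00249 had Mx2 at 0.366 CPM against 1.38 to 1.94.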

How the results depend on the processing

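Of 1386 alternative values for 80 pairings of a named member with a comparison, 1338 kept direction and side of the threshold, 20 lost it, 11 gained it and 17 changed direction. The cause of these changes was not tested. Members called in liver tumour against liver were 6 with library totals, 6 with DESeq2 and 7 in 1 fit over all tissues, against 3. Of the 6 with DESeq2, 5 were higher and 1 lower. They held 2 of the 3 main calls, and DESeq2 gave the remaining main call no adjusted p. Library totals, chosen after seeing the data, gave 31 in sarcoma against muscle and 18 in sarcoma against liver tumour. With the mouse as a block, 0 members were called in liver tumour against liver, where 0 of all genes were called too. In sarcoma against liver tumour 13 were called, beside 23.5% of all genes. The block changed no other count by over 1.5 times. The sarcoma minus liver tumour level was -0.88, and -1.24 as log2 of summed CPM.

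Leaving out 1 embryo or mouse at a time gave 0 to 25 members in homozygous against negative fibroblasts at passage 1, 0 in the other fibroblast comparisons, 0 to 8 in liver tumour, 13 to 22 in sarcoma against muscle, 18 to 24 against lung, 29 to 33 against spleen and 24 to 31 against liver tumour, and 13 to 20 in spleen against lung. Over these fits, log2 fold changes that changed direction ran, for Ifit3, from -0.24 to 1.59 for passage, -0.14 to 1.05 for homozygous and -0.72 to 0.40 (0.395) for heterozygous fibroblasts at passage 3; for Bst2, from -0.89 to 0.05 (0.052) for heterozygous at passage 1, -0.41 (-0.405) to 0.12 (0.115) at passage 3 and -0.24 to 0.02 (0.016) in spleen against lung; and for Cxcl10, from -0.13 to 1.25 for the difference in passage change. Without embryos 2, 3 and 10 passage gave -0.31 for Bst2 and -0.48 for Ifit3. Without embryos 1 and 3 Ifit3 was at -0.27 for passage and 0.39 for heterozygous at passage 3, where Bst2 was at 0.067, and Cxcl10 was at 0.13 for homozygous at passage 3. Depth limits genes near 3 counts, such as Mx1, Ifng and Ifnb1.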

Other observations

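The libraries outside the 6 groups add values for the same genes. Both libraries of the intestine tumour of mouse M00247 were high, with a mean of log2(CPM + 1) of 4.82 and 5.26 over the 39 genes, Cxcl10 at 76.5 and 65.9 CPM, Gbp2 at 104 and 163 CPM, Igtp at 79.3 and 115 CPM and Irf7 at 62.5 and 75.3 CPM. Averaged over both libraries, Irf8 was at 634 CPM and Ifng at 5.84 CPM. In the same averages the epithelial genes summed to 14.5 CPM and B cell genes to 1406 CPM. The epithelial markers were therefore low in the libraries labelled intestine tumour. The macrophage sum was 5365 and 6496 CPM.

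The 1 kidney had a mean of 3.32 and Rsad2 at 49.3 CPM, with Bst2 at 7.03 CPM. The 2 brains were near muscle, at 2.33 and 2.27, although Ifit3 stood at 12.8 and 12.3 CPM there, above every muscle (2.31 to 6.22 CPM). These groups hold 1 or 2 mice and entered no test.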
